A study of Homo sapiens with 6 samples.

Results

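The brush border of an absorptive gut cell is a sheet of microvilli, and the 10 genes described here encode its scaffold: VIL1, EZR, ESPN, EPS8, MYO1A, USH1C, CDHR2, CDHR5, PLS1 and MYO7B. They were taken from the deposited expression table by gene symbol, and 7 of the 10 had a row among 12793. The set was chosen on results of this same experiment, in which villin mRNA stood out by its low level after RBM15 targeting, so the differences of these 10 genes between the groups are given as a description with no test. USH1C, CDHR2 and MYO7B had no row by symbol or by Ensembl identifier and were not analysed here.

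Each microvillus holds a bundle of parallel actin filaments. Villin (VIL1), espin (ESPN) and plastin 1, also called fimbrin (PLS1), crosslink the filaments, EPS8 sits at the tips and caps and bundles them, and ezrin (EZR) and the motor myosin 1A (MYO1A) tie the bundle to the membrane. Neighbouring microvilli are held together by the protocadherins CDHR2 and CDHR5, which the scaffold harmonin (USH1C) and the motor myosin 7B (MYO7B) anchor to the actin core. Ezrin works when its tail is phosphorylated and otherwise folds shut.

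HCT15 cells, a human colorectal cancer line in long use, were grown in RPMI-1640 with fetal bovine serum. Total RNA was sequenced from 3 libraries given a CRISPR/Cas9 guide against RBM15 and labelled RBM15 knockout, and from 3 libraries given a control guide and labelled WT. The design text names the role of RBM15, an RNA-binding partner of the m6A RNA methylation complex, inside the tumour cell as the question. Whether the knockout cells were 1 clone or a pool is not stated, and no label names separate cultures behind the libraries. All p-values thus set a group difference against how much these libraries vary within a group, and that variation may be technical.

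Values are FPKM, a fragment count divided by transcript length and sequencing depth, so genes may be compared within a library. Library sums ranged from 402288 to 415057 FPKM, and some calls named below changed when libraries were rescaled. Read totals are unknown, and the precision rests on the spread of 3 libraries per group. Log2 levels of 11451 tested genes correlated at 0.990 to 0.992 for libraries of the same group and at 0.970 to 0.972 for libraries of different groups. RBM15 itself measured 17.3, 18.5 and 18.03 FPKM in knockout-labelled libraries 1 to 3, against 5.97, 5.89 and 5.51 FPKM in control libraries 1 to 3. Its log2 difference was 1.48 (limma adjusted p = 3.88e-06, higher in 3 of 3 libraries), and p was 0.1 in an exact permutation test (2-sided), the smallest that 3 against 3 allows. The targeted mRNA was thus higher in the libraries labelled knockout, and its level alone does not show whether RBM15 was lost. No RBM15 protein values were available here. Every direction below, "rose" and "fell" included, rests on the labels alone. Of 10 epithelial markers 8 were tested, among them EPCAM, CDH1 and keratins. Of the 8, 6 fell and 1 rose, where 29.2% of all tested genes fell and 25.3% rose. Their summed level, mostly from keratins, lay between 3674 and 3819 FPKM in the libraries labelled knockout. In the controls it lay between 4130 and 4212 FPKM. ELF3, CDX2 and CLDN7 differed most, with log2 differences of -1.30, -1.06 and -0.69 (limma adjusted p = 9.25e-06, 5.98e-06 and 1.42e-05). Goblet cell markers had a row for 0 of 8, fibroblast markers for 1 (COL1A1, near 1 FPKM in both groups), endothelial markers for 1 and leukocyte markers for 1. The endothelial one, the claudin gene CLDN5, had 0.803 FPKM in the libraries labelled knockout and 1.26 FPKM in the controls (adjusted p = 0.0183), a call lost under quantile normalization (adjusted p = 0.108) and without knockout library 1 (adjusted p = 0.0543; 0.00409 to 0.108 over the alternatives). CLDN5 reached the mean of 1 FPKM required for testing only through the controls. That leukocyte marker, the lysosomal gene CD68, had 6.68 ± 0.632 FPKM in the libraries labelled knockout and 2.91 ± 0.216 FPKM in the controls (SD, n = 3 each), while PTPRC, which defines leukocytes, had no row. The part of these marker differences in the results below was not tested.

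Villin mRNA was low in every library labelled knockout. VIL1 measured 3.80, 3.69 and 4.12 FPKM in knockout-labelled libraries 1 to 3, against 17.2, 16.8 and 17.0 FPKM in control libraries 1 to 3. The groups lay far apart, and within each group the libraries differed by less than 0.5 FPKM. The mean was 3.87 ± 0.222 FPKM in the libraries labelled knockout, 22.8% of the 17.0 ± 0.168 FPKM in the controls, and the difference on the log2(FPKM + 1) scale was -1.89 (SE 0.038). VIL1 (ENSG00000127831) occupies chromosome 2, bases 218419092 to 218453295 on the plus strand of GRCh38, by GENCODE 29. Of its 6920 exonic bases, 3045 are also exonic in USP37, a deubiquitinase gene on the opposite strand. USP37 moved the other way, with 6.27 ± 0.116 FPKM in the libraries labelled knockout and 2.93 ± 0.141 FPKM in the controls (limma log2 difference 0.89, adjusted p = 4.34e-05). No source used here says whether strand was used in counting, and the part of this overlap in the VIL1 values was not tested. In bulk RNA, fewer cells making a transcript and less of it per cell cannot be told apart.

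Espin mRNA was also low in every library labelled knockout. ESPN had 0.192, 0.419 and 0.167 FPKM in the libraries labelled knockout, against 1.98, 2.37 and 2.24 FPKM in the controls. Its mean in the libraries labelled knockout, 0.259 ± 0.139 FPKM, was 11.8% of the control mean of 2.197 ± 0.195 FPKM. The log2 difference was -1.35 with a pseudocount of 1 and -2.74 with a pseudocount of 0.1, since the pseudocount weighs on a gene this low. ESPN occupies bases 6424776 to 6461367 of chromosome 1, plus strand, and shares 383 exonic bases with TNFRSF25 on the opposite strand, which had 7.46 ± 0.913 FPKM in the libraries labelled knockout and 11.2 ± 0.636 FPKM in the controls. A pseudogene copy, ESPNP, can share its reads, so its level is uncertain.

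Plastin 1, the third bundler, differed less. PLS1 was at 14.9, 16.4 and 17.1 FPKM in knockout-labelled libraries and at 21.9, 21.7 and 21.6 FPKM in the controls. The groups did not overlap, and the spread was wider in the libraries labelled knockout. The mean of 16.1 ± 1.11 FPKM was 74.1% of the control mean of 21.8 ± 0.128 FPKM (log2 difference -0.41, SE 0.055). PLS1 occupies bases 142596387 to 142713664 of chromosome 3, plus strand, and no other annotated gene shares its exons.

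Ezrin ran opposite to villin, espin and plastin 1. EZR had 226, 232 and 231 FPKM in the libraries labelled knockout, against 143, 145 and 148 FPKM in the controls. It was the most abundant member in both groups, at 229 ± 2.93 FPKM in the libraries labelled knockout and 146 ± 2.87 FPKM in the controls, a ratio of 1.58 (log2 difference 0.65, SE 0.020). EZR occupies bases 158765741 to 158819412 of chromosome 6, minus strand, where the antisense gene EZR-AS1 shares 24 exonic bases.

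EPS8 and MYO1A showed overlapping groups. The tip protein gene EPS8 was at 15.1, 16.1 and 14.1 FPKM in knockout-labelled libraries and at 14.2, 13.4 and 15.7 FPKM in the controls, a ratio of 1.05. EPS8 occupies bases 15620158 to 15882329 of chromosome 12, minus strand, and MYO1A bases 57028517 to 57051198 of the same strand. MYO1A lay below the 1 FPKM mean required for testing, at 0.359, 0.428 and 0.240 FPKM in knockout-labelled libraries and 0.394, 0.417 and 0.256 FPKM in the controls. Its motor protein is a major brush border component of mature enterocytes, and the mRNA was barely present in either group of these cells.

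CDHR5, which links microvillus tips, was the only listed member of the adhesion complex. It had 0.304, 0.205 and 0.227 FPKM in the libraries labelled knockout, against 1.24, 1.14 and 1.499 FPKM in the controls. The mean of 0.246 ± 0.052 FPKM in the libraries labelled knockout was 19.0% of the 1.29 ± 0.188 FPKM in the controls, and no library of one group reached the other. CDHR5 averaged under 1 FPKM over the 6 libraries and was left out of the test. Its log2 difference was -0.88 with a pseudocount of 1 and -2.01 with 0.1. The gene occupies bases 616565 to 626078 of chromosome 11, minus strand, with no other annotated gene over its exons.

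**Figure D1:**
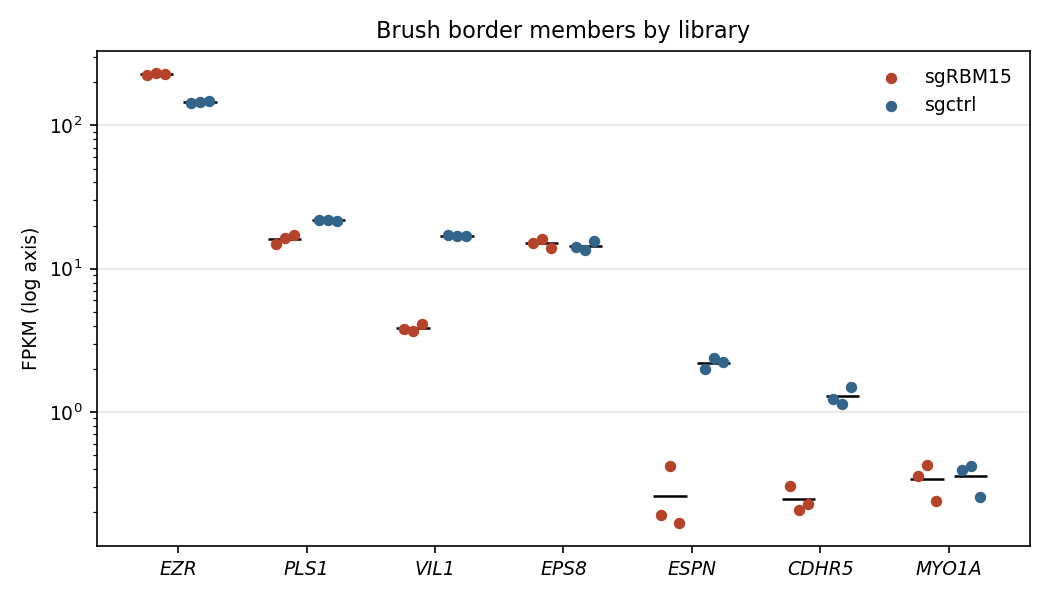
FPKM of the 7 listed members in each library on a log axis, with libraries labelled knockout (sgRBM15) left of controls (sgctrl). Points are libraries and black lines are group means of 3. VIL1, ESPN, CDHR5 and PLS1 lie lower and EZR higher in sgRBM15, while EPS8 and MYO1A overlap.

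The order of the members changed with these differences. In the controls the order by FPKM was EZR, PLS1, VIL1, EPS8, ESPN, CDHR5 and MYO1A, and no neighbours overlapped. In the libraries labelled knockout EZR was followed by PLS1 and EPS8, whose values overlapped, and then by VIL1. MYO1A, ESPN and CDHR5 came last there, with overlapping values between 0.167 and 0.428 FPKM. Between the groups, 5 of the 7 listed members did not overlap, where 61.3% of all rows did not. Among the 5 tested members the fit over all genes called 4, with 1 higher (25.3% of tested genes were called higher) and 3 lower (29.2% were called lower). Nothing is read from these counts, because the members were picked with this contrast in view and ESPN reached the mean of 1 FPKM only through the controls.

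The upstream sequences of EZR and PLS1 are shown because these members, both well above 10 FPKM, differed in opposite directions. RefSeq promoter entries on GRCh38.p14 were matched for 6 of the 10 members, EZR, MYO1A, USH1C, CDHR2, PLS1 and MYO7B, and not for VIL1, ESPN, EPS8 and CDHR5. The 250 bases before each start were searched on both strands for TGANTCA (AP-1), GGGCGG (GC box), TTTATNG (the core bound by CDX proteins), TATAAA and CCAAT. Matches are in capitals, bases inside annotated exons were cut off, and the sequences run 5′ to 3′ on the strand of the gene. EZR is from chr6:158818236-158818485 on the minus strand. PLS1 start 1 is from chr3:142596143-142596386 and PLS1 start 2 from chr3:142623174-142623385, both on the plus strand.
EZR: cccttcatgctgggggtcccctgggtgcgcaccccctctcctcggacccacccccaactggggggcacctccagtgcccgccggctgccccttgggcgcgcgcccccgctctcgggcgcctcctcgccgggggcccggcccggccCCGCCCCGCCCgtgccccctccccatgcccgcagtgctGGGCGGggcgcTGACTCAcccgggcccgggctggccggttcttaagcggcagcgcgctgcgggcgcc
PLS1 start 1: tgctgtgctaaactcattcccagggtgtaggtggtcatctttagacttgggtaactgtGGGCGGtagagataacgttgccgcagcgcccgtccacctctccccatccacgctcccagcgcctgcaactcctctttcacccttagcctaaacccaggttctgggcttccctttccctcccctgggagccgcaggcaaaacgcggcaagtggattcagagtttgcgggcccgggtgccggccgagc
PLS1 start 2: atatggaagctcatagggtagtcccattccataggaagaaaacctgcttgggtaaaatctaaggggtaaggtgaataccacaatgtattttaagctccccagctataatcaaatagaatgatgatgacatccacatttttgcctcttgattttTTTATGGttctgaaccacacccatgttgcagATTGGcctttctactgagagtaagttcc

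The EZR window, which lies inside the wider bounds GENCODE gives the gene, is 80.8% G and C and holds 3 GC boxes, of which 2 overlap each other by their end bases, and 1 AP-1 match that begins 56 bases before the start. Over the 35116 promoter windows in the table, 42.6% hold a GC box and 6.57% the AP-1 letters. PLS1 start 1 holds 1 GC box and none of the other motifs. PLS1 start 2 is 39.6% G and C and holds 1 CDX match 97 bases before the start, found in 8.93% of all windows, and 1 CCAAT match on the other strand, found in 32.0%. A PLS1 window at a further start held none of the motifs, and TATAAA, present in 10.7% of all windows, was in none of these windows. Which PLS1 start these cells use was not measured.

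The members' transcripts ranged widely in base composition. The longest GENCODE protein-coding transcript was 69.7% G and C for ESPN and 64.5% for CDHR5, both above the 90th percentile (62.1%) of 11090 tested genes, and 36.1% for PLS1, below the 10th percentile (38.7%). VIL1 had 44.4% and EZR 51.2%, near the median of 48.8%. GGACT, a common spelling of the site at which the m6A complex acts, occurred 0.919 times per kilobase in VIL1, where the median gene had 0.926. EZR had 1.94 per kilobase, above the 90th percentile of 1.92, and PLS1 had 1.60, ESPN 1.48, MYO1A 1.09, CDHR5 0.550 and EPS8 0.399. Of the members with no row in the table, USH1C had 2.22 per kilobase, CDHR2 1.77 and MYO7B 0.745. No methylation was measured, so these are counts of letters only.

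Genes around the microvillus that are not among the 10 were tested in 9 lists with the fit over all genes, in which 54.5% of tested genes changed at an adjusted p of 0.05. The lists were drawn up with earlier results of these data known. Together they held 122 tested genes, of which 66 changed (54.1%), with 29 that rose and 37 that fell, so the lists as a whole changed about as often as any gene. Differences below are on the log2(FPKM + 1) scale, with limma adjusted p-values and with means ± SD of 3 libraries per group. Over all tested genes, 25.3% rose and 29.2% fell, with a median difference of -0.018.

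Among 20 tested bundling, capping and tip factors of 23, 6 rose and 7 fell in the libraries labelled knockout, with a median difference of 0.01. Their share that changed was 65.0%, against 54.5% of all tested genes. Fascin (FSCN1), which bundles actin in filopodia and is low in normal gut epithelium, rose. It had 66.4, 70.0 and 64.5 FPKM in the libraries labelled knockout, against 40.3, 42.2 and 40.0 FPKM in the controls, a difference of 0.70 (SE 0.041, adjusted p = 3.38e-05). Plastin 3 (PLS3), the broadly expressed relative of PLS1, rose by 0.14 (adjusted p = 0.0133). The relatives of EPS8 all fell, unlike EPS8. EPS8L3 had 2.14, 2.07 and 2.04 FPKM in the libraries labelled knockout and 8.14, 8.06 and 8.28 FPKM in the controls (difference -1.57, SE 0.052, adjusted p = 3.88e-06). EPS8L2, the most abundant of the family, had 61.5 ± 2.26 FPKM in the libraries labelled knockout and 92.5 ± 3.9 FPKM in the controls (adjusted p = 7.39e-05), and EPS8L1 fell by 0.57 (adjusted p = 0.000337). BAIAP2L2, a membrane-binding I-BAR protein, fell by 0.72 (adjusted p = 0.00254), and its tip relative BAIAP2L1 fell by 0.30. MISP, which stabilises microvillus rootlets, had 50.4 ± 0.454 FPKM in the libraries labelled knockout and 67.3 ± 1.92 FPKM in the controls. ACTG1, one of the actins of the core, was not called at 1223 ± 17.3 FPKM in the libraries labelled knockout and 1200 ± 10.7 FPKM in the controls (adjusted p = 0.319), but was called higher after rescaling to a common sum and under quantile normalization (adjusted p = 0.0476 and 0.0211).

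**Figure D2:**
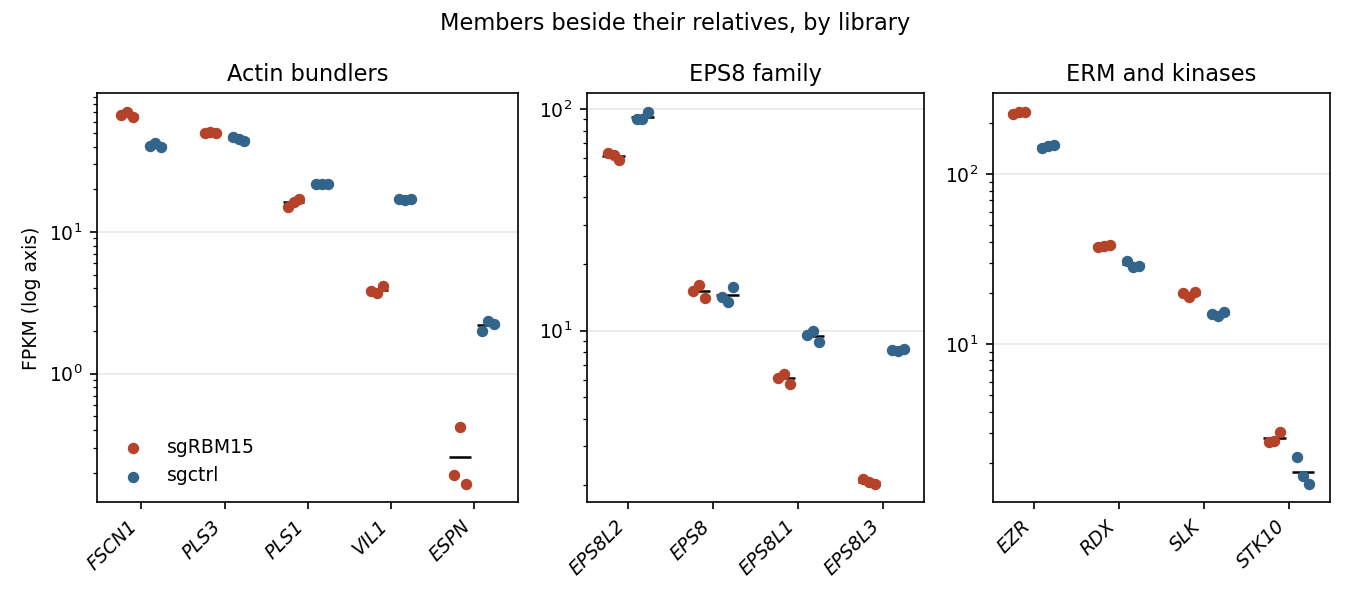
FPKM by library on log axes for actin bundlers, the EPS8 family, and ezrin and radixin with the kinases SLK and STK10, sgRBM15 left of sgctrl. Points are libraries and black lines are means of 3. FSCN1 and PLS3 lie higher in sgRBM15 while VIL1, ESPN and PLS1 lie lower, and EPS8 overlaps while its relatives lie lower.

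Within the pool of bundler transcripts, villin lost ground to fascin. Of the summed FPKM of VIL1, ESPN, PLS1, PLS3, LCP1 and FSCN1, a grouping made after the values were seen, VIL1 took 2.80%, 2.61% and 3.03% in the libraries labelled knockout, against 13.3%, 13.1% and 13.5% in the controls. FSCN1 took 48.6 ± 1.12% in the libraries labelled knockout and 32.0 ± 0.759% in the controls. PLS1 took 11.7 ± 0.787% in the libraries labelled knockout and 17.1 ± 0.178% in the controls, and PLS3 took 36.2 ± 0.462% in the libraries labelled knockout and 35.4 ± 0.756% in the controls. The sum itself was 138 ± 3.2 FPKM in the libraries labelled knockout and 128 ± 1.82 FPKM in the controls. These are shares of mRNA and carry no test.

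**Figure D3:**
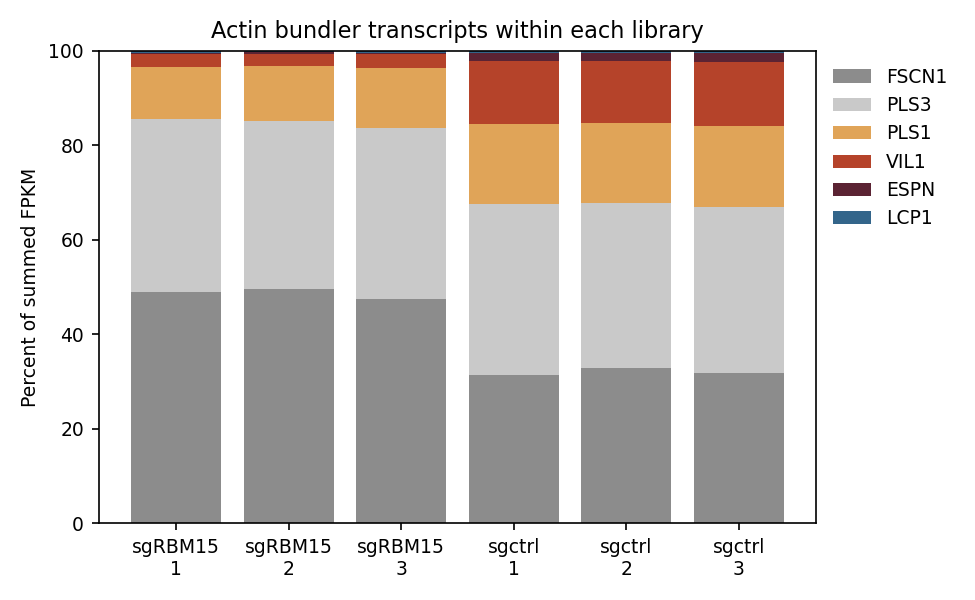
Stacked bars of each actin bundler's percent of the summed FPKM of the 6 genes, 1 bar per library, sgRBM15 on the left. VIL1 takes between 2.61% and 3.03% in sgRBM15 and between 13.1% and 13.5% in sgctrl, and FSCN1 takes the larger share in sgRBM15.

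Of 16 tested relatives and partners of ezrin out of 19, 8 rose, 1 fell and 7 were not called, with a median difference of 0.13. The 56.2% that changed lay near the 54.5% of all tested genes, of which 25.3% rose and 29.2% fell. Only the split by direction thus differed from that of all tested genes. Radixin (RDX), the other listed protein of ezrin's family, had 37.1, 37.7 and 38.3 FPKM in the libraries labelled knockout, against 30.9, 28.2 and 28.9 FPKM in the controls (difference 0.35, SE 0.042, adjusted p = 0.000542). Of the kinases that phosphorylate ezrin's tail, SLK and STK10 rose too. SLK had 19.8 ± 0.686 FPKM in the libraries labelled knockout and 15.04 ± 0.432 FPKM in the controls (adjusted p = 0.000466), and STK10 had 2.79 ± 0.22 FPKM in the libraries labelled knockout and 1.77 ± 0.339 FPKM in the controls (adjusted p = 0.00884). NF2, which encodes merlin, a tumour suppressor related to ezrin, rose by 0.32 (adjusted p = 0.00164). RHOA, a small GTPase of the cortex, was the gene that fell, by 0.12 (adjusted p = 0.00313), and under quantile normalization it was not called and lay 0.012 higher. The scaffold NHERF1, which ezrin binds, was not called at 44.98 ± 2.03 FPKM in the libraries labelled knockout and 41.5 ± 1.58 FPKM in the controls (adjusted p = 0.0696), and was called higher after rescaling to a common sum or median centring (adjusted p = 0.0402 and 0.0368).

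Villin belongs to the gelsolin family of actin-severing and capping proteins. Of its 8 listed relatives 7 were tested, 4 fell and 2 rose, with a median difference of -0.45. Changed genes made up 85.7% of the 7, against 54.5% of all tested genes, of which 29.2% fell and 25.3% rose. Gelsolin (GSN) had 17.6, 18.4 and 17.7 FPKM in the libraries labelled knockout and 24.8, 26.7 and 25.2 FPKM in the controls (difference -0.49, SE 0.042, adjusted p = 0.000135). The villin-like gene VILL fell by 0.63 (adjusted p = 0.00344) and advillin (AVIL) by 0.45 (adjusted p = 0.00632). Both averaged under 1 FPKM in the libraries labelled knockout (0.653 and 0.784 FPKM) and passed the filter only through the controls (1.56 and 1.44 FPKM). Among the 5 relatives at 1 FPKM or more in both groups, a restriction chosen after the values were seen, 2 rose and 2 fell, and the median difference was 0.05. Dematin (DMTN), which shares villin's headpiece, fell by 0.48 (adjusted p = 0.0121). These 4 genes were named for the largest differences. The 2 relatives that rose did so by 0.32 and 0.26 (adjusted p = 0.0119 and 0.0193). The most abundant relative, at a mean of 49.3 FPKM, was not called (difference 0.05). The number that rose was 1 without knockout library 1 or knockout library 2.

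Few partners of the adhesion complex were measurable. Of 11 listed relatives, 4 had a row and 3 were tested, of which the scaffold gene WHRN fell by 0.46 (2.0 ± 0.185 FPKM in the libraries labelled knockout and 3.13 ± 0.265 FPKM in the controls, adjusted p = 0.00311). The other 2 were not called and lay higher, by 0.29 and 0.19 (adjusted p = 0.133 and 0.14), so the list median was 0.19. Under quantile normalization 2 genes of this list were called higher.

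Among 20 tested myosins, spectrins, light chains and keratins of the brush border and terminal web, 6 rose and 7 fell in the libraries labelled knockout, with a median difference of 0.01. In this list 65.0% changed, against 54.5% of all tested genes. MYH14, a non-muscle myosin of the terminal web, had 11.5 ± 0.833 FPKM in the libraries labelled knockout and 17.1 ± 0.5 FPKM in the controls (difference -0.53, adjusted p = 0.000357). MYO10, a motor of filopodia, fell by 0.37 (adjusted p = 0.00382), and the simple epithelial keratin KRT19 fell by 0.36 (adjusted p = 4.98e-05). MYO5B, the apical transport motor mutated in microvillus inclusion disease, fell by 0.26 (adjusted p = 0.0484), and this call was lost in 10 of 14 alternatives (adjusted p 0.00948 to 0.129), among them without any of the libraries except control library 2. The number of genes of this list that rose was 3 without control library 1.

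In the list of apical trafficking genes, which also holds MYO5B, 4 of 18 tested genes fell and 2 rose. Changes thus covered 33.3% of them, below the 54.5% of all tested genes. STXBP2, which serves apical vesicle fusion, had 40.7 ± 0.681 FPKM in the libraries labelled knockout and 58.4 ± 0.245 FPKM in the controls (difference -0.51, adjusted p = 3.02e-05). VIPAS39, a partner of VPS33B in apical sorting, fell by 0.60 (adjusted p = 0.000186) and RAB11B by 0.28 (adjusted p = 0.00138), while RAB11FIP5 rose by 0.37 (adjusted p = 0.00154). Of 19 tested polarity genes, 6 fell and 2 rose, with a median difference of -0.12. Here 42.1% changed, also below the share over all tested genes. LLGL2 had 55.7 ± 1.02 FPKM in the libraries labelled knockout and 76.5 ± 1.42 FPKM in the controls (adjusted p = 5.29e-05), and the atypical protein kinase C genes PRKCZ and PRKCI fell by 0.33 (adjusted p = 0.000873) and 0.31 (adjusted p = 0.00784). The kinase gene MAP4K4 rose by 0.41 (adjusted p = 0.0182), a call lost without knockout library 1, control library 2 or control library 3 (adjusted p 0.00227 to 0.0596 over the alternatives). Each of these omissions left 1 polarity gene that rose.

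**Figure D4:**
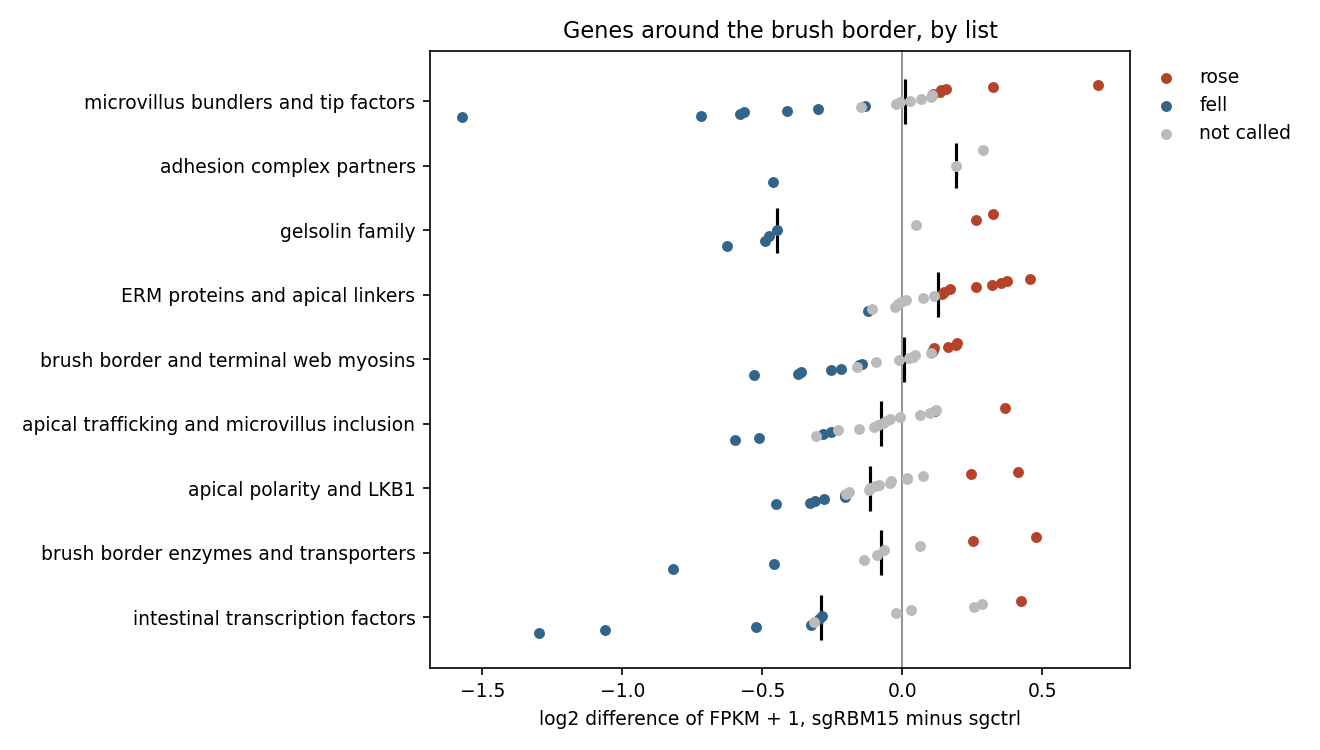
Log2 differences, sgRBM15 minus sgctrl, of the tested genes in 9 lists around the brush border, 1 row per list. Each point is a gene, coloured by whether it rose, fell or was not called, and black bars are list medians. Every list but the adhesion complex partners holds genes on both sides that were called.

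Enzymes and transporters of the mature brush border were mostly unlisted. Of 38 such genes 28 had no row, 8 were tested, 2 rose and 2 fell. The carbonic anhydrase gene CA2 rose, with 22.1 ± 1.48 FPKM in the libraries labelled knockout and 15.6 ± 1.71 FPKM in the controls (adjusted p = 0.00292). AMN, which anchors the vitamin B12 receptor, fell by 0.46 (adjusted p = 0.0036). GGT1, whose reads may be shared with near-identical copies and which averaged under 1 FPKM in the libraries labelled knockout, fell by 0.82 (adjusted p = 0.028), a call lost without knockout library 2 or 3 or control library 2 and with a replicate block (adjusted p 0.0042 to 0.0849 over the alternatives). GGT1 passed the filter only through the controls (1.82 FPKM). Among the 7 genes at 1 FPKM or more in both groups, a restriction chosen after the values were seen, 2 rose and 1 fell. The sodium-proton exchanger gene SLC9A2 rose by 0.25 (adjusted p = 0.0346), a call lost with a replicate block and without any library except knockout library 2 (adjusted p 0.00602 to 0.0992). In this list 2 genes were changed without knockout library 3, control library 2 or control library 3 and with the replicate block. The number that rose was 1 without knockout library 1 or control library 1, and the number that fell was 1 without knockout library 2. The peptidase gene DPP4 was not called at 1.04 ± 0.185 FPKM in the libraries labelled knockout and 1.24 ± 0.262 FPKM in the controls (adjusted p = 0.363).

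Among listed intestinal transcription factors, 12 of 20 were tested, 6 fell and 1 rose, with a median difference of -0.29. The 58.3% that changed lay near the 54.5% of all tested genes, of which 29.2% fell. ELF3, an epithelial ETS factor, had 11.8, 10.4 and 10.6 FPKM in the libraries labelled knockout and 27.8, 27.5 and 29.4 FPKM in the controls (difference -1.30, SE 0.055, adjusted p = 9.25e-06). The homeobox factor CDX2, which binds the villin gene in gut epithelium, had 9.49, 9.28 and 9.78 FPKM in the libraries labelled knockout, against 21.1, 20.9 and 20.8 FPKM in the controls (difference -1.06, SE 0.039, adjusted p = 5.98e-06). Both groups were tight and lay far apart for these factors. KLF4 had 6.29 ± 0.084 FPKM in the libraries labelled knockout and 9.48 ± 0.531 FPKM in the controls (adjusted p = 0.000265). GATA6 fell by 0.32, HNF4A by 0.30 and KLF5 by 0.29 (adjusted p = 0.00335, 0.00587 and 0.00241). The vitamin D receptor gene VDR rose by 0.42 (adjusted p = 0.0176), a call lost without knockout library 3, control library 1 or control library 2 (adjusted p 0.0025 to 0.0553 over the alternatives). The number that rose was 0 without knockout library 3 or control library 1, and 2 without knockout library 1.

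**Figure D5:**
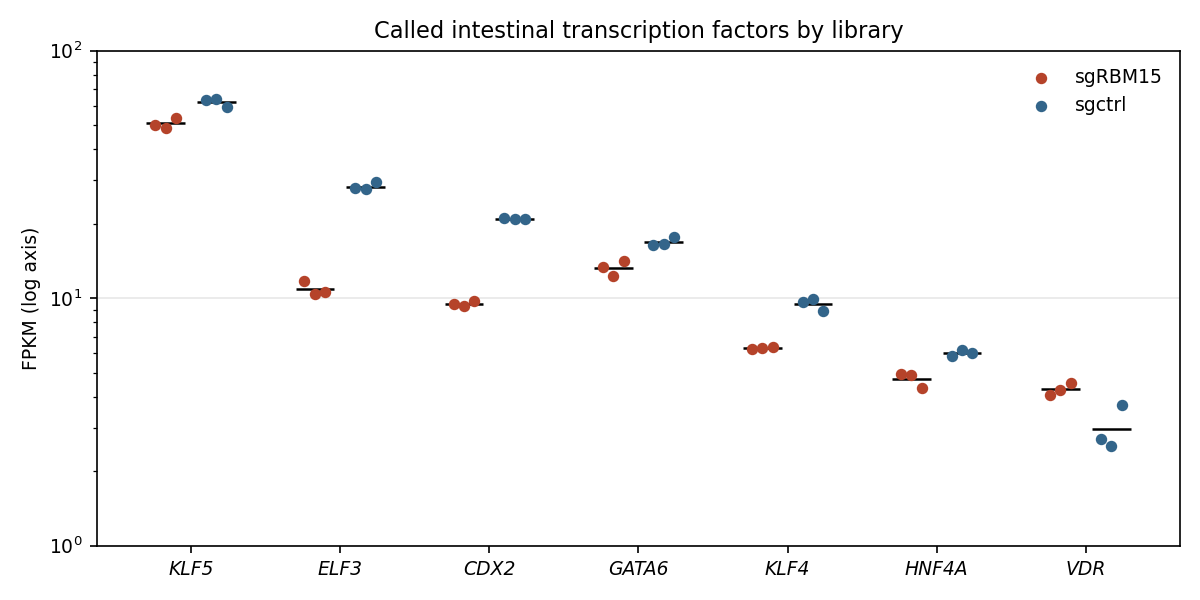
FPKM by library on a log axis for the 7 called intestinal transcription factors, ordered by control level, sgRBM15 left of sgctrl. Points are libraries and black lines are means of 3. ELF3 and CDX2 lie lowest against their controls, and VDR is the 1 factor that lies higher in sgRBM15.

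The profile of VIL1 over the 6 libraries was compared with every other tested gene by Euclidean distance of log2(FPKM + 1) values after subtraction of the control mean. The 5 nearest genes were the fucosyltransferase gene FUT3 (distance 0.123), PIP5KL1 (0.17), the glucocorticoid-inducible gene TSC22D3 (0.215), the homeobox gene HOXB2 (0.217) and the intestinal stem cell factor gene ASCL2 (0.261). FUT3 had 0.446 ± 0.0932 FPKM in the libraries labelled knockout and 4.32 ± 0.192 FPKM in the controls. ASCL2 had 7.47 ± 0.751 FPKM in the libraries labelled knockout and 28.2 ± 0.921 FPKM in the controls. The measure is dominated by the size of the group difference on the log2(FPKM + 1) scale, where the pseudocount shrinks the differences of low genes. The ratio of linear means was 0.103 for FUT3 and 0.113 for HOXB2, both under 1 FPKM in the libraries labelled knockout, while it was 0.228 for VIL1. PIP5KL1, TSC22D3 and ASCL2 had ratios of 0.233, 0.240 and 0.265.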

How the data were processed

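RNA of 3 HCT15 libraries labelled RBM15 knockout and 3 control libraries was measured by paired-end sequencing. The authors deposited FPKM per gene, per the file headers; the tools named by the submitters' processing notes are HISAT2 2.2.1 and StringTie 2.0.4, with the build hg38. How these were set, the annotation, the use of strand and the row filter: not given in the sources used here. Of 12793 rows, 12121 carried a symbol. Depth is unknown.

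The 11451 genes averaging 1 FPKM or more were tested on log2(FPKM + 1) with limma 3.58.1 in R 4.3.3 (2 groups, no covariates, variance trend), with 2-sided p-values and Benjamini-Hochberg adjustment across the 11451 genes at 0.05. Log2 differences with this pseudocount understate the change of low genes. Member means and SEs are plain values over 3 libraries. Tested on simulated data for this comparison over 11451 genes, the fit called 74.0% of 100 genes changed 1.5-fold. It called 94.0% of 50 changed 2-fold and 100.0% of 50 changed 4-fold. The folds were set on FPKM + 1. Far fewer genes were changed there than the 54.5% called in the data, so these shares may not carry over. Plots were drawn with matplotlib 3.10.9 under Python 3.11.15. Genes were placed with GENCODE 29, and VAMP7, with more than 1 row, was left out.

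The members and lists were chosen with earlier results of these data known. Named by rule were all members, up to 4 changed genes per list with the largest difference (the 2 most abundant where none changed) and the 5 genes nearest to VIL1. USP37, TNFRSF25, PLS3, EPS8L1, BAIAP2L1, MISP, ACTG1, RHOA, NHERF1, DPP4, GATA6, HNF4A and KLF5 were named after their values were seen. The motifs were chosen with these results known. The alternatives left out each library in turn, used a replicate block, dropped the variance trend, set the pseudocount to 0.1 or the filter to 0 or 5 FPKM, and scaled libraries by quantiles, by medians or to TPM (equal sums).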

Additional observations from a re-analysis of the deposited data

How the results depend on the processing

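Under the 14 alternatives the count of changed genes, 6245, stayed between 5083 (filter at 5 FPKM) and 6612 (no filter), the 4 called members became 3 and 5 under those same filters and stayed at 4 under the others, and the 66 changed list genes stayed between 54 (without control library 1) and 67. The main fit gave 2896 genes higher and 3349 lower, and quantile normalization gave 3367 higher and 2894 lower. Median centring gave 3239 higher and 3044 lower, and TPM 3149 higher and 3100 lower. Which direction held more genes thus depended on the scaling. Of 95 recomputed member differences, 88 moved by less than 1 SD, and the rest concerned VIL1 (-2.11 with a pseudocount of 0.1, -1.82 under quantile normalization), ESPN, CDHR5 (also -0.78 under quantile normalization) and EZR (0.68 with median centring). MYO1A, near 0, changed sign under median centring (0.016), quantile normalization (0.062) and without knockout library 3, control library 1 or control library 2 (0.0061 to 0.041). Of 749 recomputed differences of 55 named genes outside the members, 713 kept call and direction, 28 lost the call and 4 gained one. RHOA, counted apart from these, lost its call and turned its direction under quantile normalization (0.0116, limma adjusted p = 0.7065). COL1A1, near 0 and not called under any alternative, changed sign without knockout library 1, knockout library 3 or control library 1. The 28 losses fell on 6 genes: MYO5B, GGT1, SLC9A2, MAP4K4, VDR and CLDN5. CLDN5 lost its call under quantile normalization and without knockout library 1 (limma adjusted p 0.00409 to 0.108 over 11 alternatives).

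The replicate number is shared by both groups' labels, but deviations of same-numbered libraries correlated only at -0.037 to 0. No library correlated best with its own number. Pairing by number was thus not seen, though deviations from means of 3 libraries cannot exclude it. With the number as a replicate block 5782 genes changed, 4 members and 64 list genes among them, and beyond GGT1 and SLC9A2 no named call was lost. A filter at 5 FPKM left 0 called adhesion partners, 2 gelsolin relatives that fell and 1 changed enzyme or transporter gene. Unknown depth limits ESPN, CDHR5 and MYO1A most, since they lie near or below 1 FPKM.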

Other observations

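Summed over family members, a grouping made after the values were seen, transcripts of the EPS8 family came to 86.9, 86.6 and 80.9 FPKM in the libraries labelled knockout, against 122, 122 and 130 FPKM in the controls. EPS8 itself took 17.8 ± 0.716% of that sum in the libraries labelled knockout and 11.6 ± 0.512% in the controls (SD, n = 3 each), and EPS8L2 took 72.6 ± 0.807% in the libraries labelled knockout and 74.2 ± 0.44% in the controls. Ezrin and radixin together came to 267 ± 3.4 FPKM in the libraries labelled knockout and 175 ± 2.22 FPKM in the controls, of which ezrin was 85.9 ± 0.132% in the libraries labelled knockout and 83.2 ± 0.877% in the controls.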
